A study of Rattus norvegicus with 2 samples.

Results

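Cytotoxic lymphocytes kill through a granule that holds proteases and a pore-forming protein, and they also display a death ligand and release cytokines. The genes described here encode that equipment in the rat: the granule proteases Gzma, Gzmb, Gzmk and Gzmm, the pore protein Prf1, the granule membrane protein Nkg7, the death ligand Faslg, the secreted factors Ifng and Xcl1, and the activating receptor Ncr1. Members were taken by gene name from the annotation of the arrays, which gave 10 of 36174 gene names and 12 of 45598 probes. The study asked how acute restraint alters the cervical lymph nodes. RNA of these nodes was hybridized to 1 array of the C group (control) and 1 array of the RS group (restraint stress). All rats were male Sprague-Dawley rats 10 to 12 weeks old. Restraint was by the legs on a board, lying on the back. According to the study's methods, the animals were anesthetized with halothane and killed with pentobarbital before the nodes were taken. The labels do not give the restraint time of the RS array, but the array comparison of the study concerns its RS30 group. How many rats gave RNA to each array is not given in the sources used here.

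In killing, perforin opens the target cell's membrane to granzymes, which cleave proteins that start cell death. Fas ligand reaches the same end from outside, through the receptor Fas. Interferon gamma activates macrophages and raises antigen presentation, and XCL1 draws the dendritic cells that bear XCR1 and present antigen to CD8 T cells. In a resting lymph node these genes are used by NK cells, CD8 T cells and other innate-like T cells, which are a small share of its lymphocytes.

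In this 1-color design, a spot's intensity reports how much labeled cRNA its 60-base probe bound. Between 54.7% and 54.9% of probes were well above background on an array, as marked by the scanner software, and no probe of a gene was saturated. A level below is the intensity on a log2 scale minus the 75th percentile of the array (189 for C and 176 for RS, as intensity), and a difference is RS minus C on this scale. A gene was represented by its brighter probe, and 21096 genes with a signal above background on at least 1 array were screened. The spot error given with a difference combines the errors that the scanner software reports for both arrays. It covers the measurement of spots, not the spread between rats, and with 1 array per group no test was run. The node's own markers were present on both arrays: all 5 stromal genes listed (Ccl19, Ccl21, Cxcl13, Glycam1 and Pdpn), the 7 B cell genes on the array and the 12 T cell genes were above background.

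Of the 10 genes, 8 were well above background on both arrays, and Ifng and Ncr1 were on neither. Of the 8, 6 were lower and 2 were higher on the RS array, while 47.9% of all screened genes were lower by any amount. Xcl1 was the 1 gene lower by 2-fold or more, compared with 4.28% of the screened genes, and 0 were higher by 2-fold or more, compared with 3.46%. In both directions together, 7.74% of screened genes passed 2-fold. Gzmm, Gzma and Nkg7 followed at 1.82-fold, 1.65-fold and 1.60-fold lower. At 1.5-fold, 4 of the 8 were lower, compared with 8.46% of screened genes, and 0 were higher, compared with 7.97%. The median difference was -0.47 over the 8 genes and 0.016 over all screened genes. With normexp, the background correction of limma, the member median was -0.26 and 0 were lower by 2-fold or more, and without Xcl1 the median was -0.27.

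**Figure D1:**
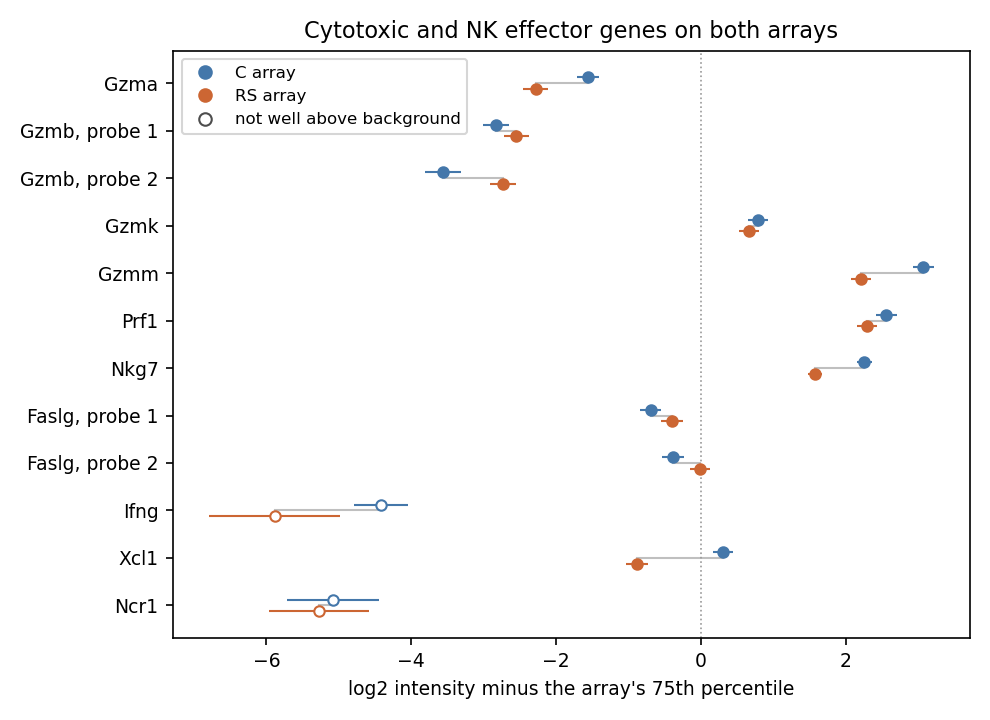
Level of each of the 12 probes on the C array (blue) and the RS array (orange), as log2 intensity minus the 75th percentile of that array, with bars of 1 spot error; open circles were not well above background. Among probes well above background, the points of Xcl1, Gzmm, Gzma and Nkg7 stand apart by more than their bars, with the RS array lower. The dimmer probe of Gzmb and the brighter probe of Faslg also stand apart by more than their bars, with the RS array higher. The other probe of each has the RS array higher with bars that overlap.

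The probes that carry these differences are shown because each value rests on 1 such oligonucleotide. They are given 5′ to 3′, in lower case, for the 3 genes read from 1 spot that were lower by more than 1.5-fold and for 3 genes that were not.
Xcl1: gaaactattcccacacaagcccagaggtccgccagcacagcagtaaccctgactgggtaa
Gzmm: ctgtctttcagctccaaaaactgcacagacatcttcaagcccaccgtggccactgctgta
Gzma: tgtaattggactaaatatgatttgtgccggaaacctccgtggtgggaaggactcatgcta
Prf1: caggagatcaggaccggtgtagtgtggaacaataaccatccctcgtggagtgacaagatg
Gzmb, dimmer probe: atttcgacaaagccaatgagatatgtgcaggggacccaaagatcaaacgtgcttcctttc
Ncr1: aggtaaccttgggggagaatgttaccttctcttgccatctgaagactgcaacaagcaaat
One feature of the probes touched the lower values of these arrays. Leaving out every probe with A and G alternating over 6 or more bases brought the genes lower by 2-fold or more from 903 to 498. None of the 12 probes of the members holds such a run, whereas the 4.28% and 8.46% of screened genes given above include genes read by such probes. The longest stretch of A and G bases in any order was 5 in the probes of Xcl1 and Gzmm, 8 in that of Gzma and 4 in that of Nkg7. It was 13 in the brighter probe of Gzmb, the longest among the 12 probes, and 6 in the dimmer. GC content was 55.0% for Xcl1 and Nkg7, 51.7% for Gzmm and Prf1, and 45.0% for Gzma.

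Granzyme M, a protease that cuts after methionine and leucine, is a marker of innate cytotoxic cells. Its probe is placed on the reverse strand of chromosome 7, 11526548 to 11526607. All probe positions are those deposited with the arrays, for which the header gives rn4 as build. Gzmm read 1592 on the C array and 817 on the RS array. The difference of Gzmm, -0.86, was 4.2 times its spot error of 0.20. Of the screened genes, 5.15% had a difference as low or lower.

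Granzyme A is a tryptase of NK and CD8 T cells. Its probe (chromosome 2, 44490165 to 44490224, reverse strand) read 64.2 on the C array and 36.3 on the RS array, which differ by -0.72 (spot error 0.23). With normexp, the difference of Gzma was -0.27. Granzyme K, encoded nearby on the same chromosome (probe from 44589378 to 44589437, reverse strand), read 327 and 280.0. Its difference of -0.12 lay within its spot error of 0.20, with limits at 1.96 spot errors of -0.53 and 0.28.

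Granzyme B, the protease that starts apoptosis in the target cell, was higher on the RS array. Its brighter probe (chromosome 15, 35195458 to 35195517, reverse strand) read 26.5 on the C array and 30.2 on the RS array, which differ by 0.29 (spot error 0.24). The dimmer probe (35196479 to 35196538), whose sequence is printed above, read 16.0 and 26.7, which differ by 0.84 (spot error 0.31). Both probes were higher on the RS array, and only the difference of the dimmer probe exceeded 1.96 spot errors. Other genes on the array are described as granzyme B-like, and whether their transcripts share signal with these probes was not tested.

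Perforin is the pore protein through which granzymes enter. The probe for Prf1 (chromosome 20, 28663319 to 28663378, forward strand) read 1117 on the C array and 868 on the RS array, a difference of -0.27 with a spot error of 0.20 and limits at 1.96 spot errors of -0.67 and 0.13. Nkg7, a membrane protein of the cytotoxic granule needed for its release, was printed in 2 spots. They read 944 and 866 on the C array and 544 and 512 on the RS array, so that the spots of the arrays did not overlap. The SD of the log2 intensity between spots was 0.088 (C) and 0.062 (RS), and the difference was -0.68 with a spot error of 0.14. The Nkg7 probe is on the forward strand of chromosome 1, 93813978 to 93814037.

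Fas ligand, the death ligand, was read by a pair of probes on chromosome 13. The brighter (77472996 to 77473055, reverse strand) read 145 on the C array and 175 on the RS array, and the dimmer (77471319 to 77471378) read 117 and 133. The differences were 0.37 and 0.29, each with a spot error of 0.21. Both were positive and neither exceeded 1.96 spot errors. The dimmer probe ends in a run of alternating T and G bases.

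Xcl1, the chemokine also called lymphotactin, showed the largest difference among the 8 genes. Its probe (chromosome 13, 80691195 to 80691254, reverse strand) read 233 on the C array and 95.9 on the RS array, which is 2.27-fold lower after scaling. The difference was -1.18 with a spot error of 0.21, and 3.56% of the screened genes were as low or lower. With normexp it was -0.85, which is under 2-fold. The probe for its receptor, Xcr1, was not marked above background on either array, with intensities of 2.36 and 2.03.

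The other secreted factor and the receptor could not be compared. The probe for Ifng (chromosome 7, 57625663 to 57625722, forward strand) read 8.86 on the C array and 2.98 on the RS array. The lowest intensity among probes well above background was 9.45 and 8.52, so both values of Ifng lay under it, and the spot error was 0.97. The probe for Ncr1, which encodes the NK receptor NKp46 (chromosome 1, 68969603 to 68969662, reverse strand), read 5.59 and 4.57, both not well above background. A difference in either gene was not detectable at this signal.

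**Figure D2:**
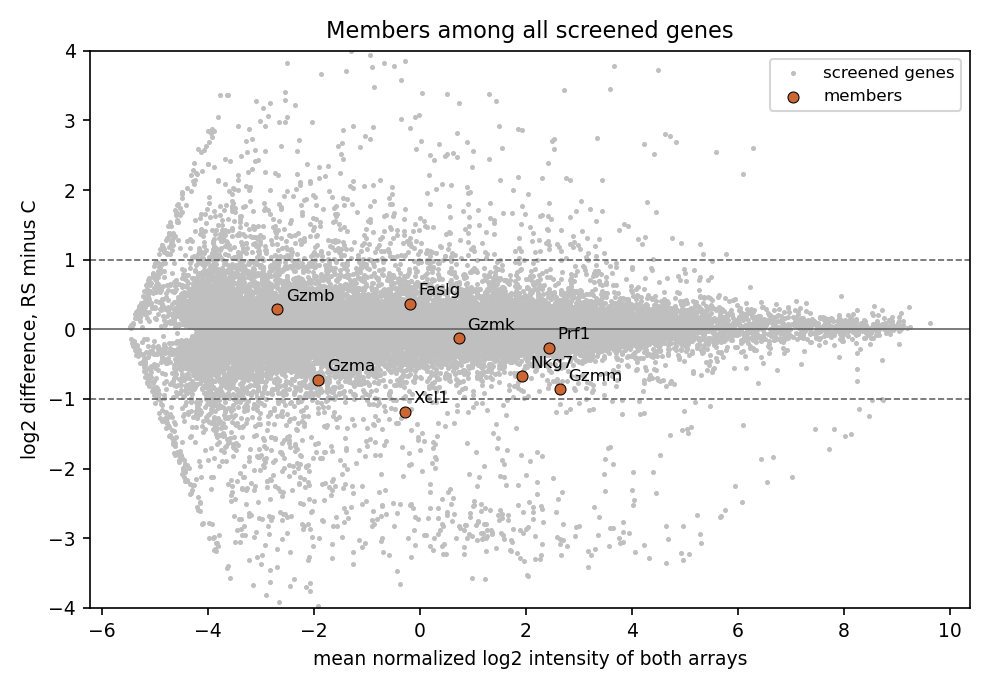
Log2 difference (RS minus C) against the mean normalized log2 intensity of both arrays for the screened genes (gray), with the 8 measured members in orange and dashed lines at 2-fold; 21 genes lie beyond the vertical axis. Xcl1 lies just below the lower line, Gzmm, Gzma and Nkg7 lie between it and 0, and Gzmb and Faslg lie above 0.

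The differences were next read beside the lymphocyte markers of the same arrays, since in whole nodes fewer cells of a type and less RNA per cell cannot be told apart. Of the 12 T cell genes, 11 were lower on the RS array, none by 2-fold, with a median of -0.28. The lowest were Cd5 (-0.97), Cd6 (-0.76, on a probe with alternating A and G bases), Cd2 (-0.64) and Lck (-0.58), and Cd28 was higher (0.57). Cd3e, a chain of the T cell receptor complex, differed by -0.16. Cd4 differed by 0.013 on its brighter probe, and this sign turned with the scaling (-0.085 to 0.039). The dimmer Cd4 probe read 94.3 and 72.8 and was lower on the RS array (-0.27, spot error 0.21). The mean over the probes of Cd4 was -0.13. The CD8 genes were lower: Cd8a read 907 and 590.1 (difference -0.52, spot error 0.20) and Cd8b differed by -0.16. In units of the array's 75th percentile, the T cell list summed to 266 on the C array and 223 on the RS array, and the CD8 list to 6.22 and 4.61. B cell genes had a median of -0.049 over 7 genes, and 0 of them passed 2-fold.

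Set against Cd3e, by subtracting its difference, the remainder was -1.02 for Xcl1 (spot error 0.29), -0.70 for Gzmm (0.29), -0.56 for Gzma (0.30) and -0.51 for Nkg7 (0.25). Set against Cd8a, the remainders were -0.66 for Xcl1 (0.29), -0.34 for Gzmm (0.29), -0.20 for Gzma (0.30) and -0.16 for Nkg7 (0.25). For Prf1, Gzmk, Gzmb and Faslg they were 0.26 (0.29), 0.40 (0.29), 0.81 (0.32) and 0.89 (0.29). Cd8a itself differed by -0.52, so a gene without a difference has a positive remainder against it. The remainders of Xcl1, Gzmb and Faslg against Cd8a exceeded 1.96 spot errors, that of Xcl1 downward and those of Gzmb and Faslg upward. The differences of Gzmb (0.29) and Faslg (0.37) on their brighter probes did not exceed that limit by themselves. The share of all screened genes with such a remainder is not given here. Against the median of the T cell list, the remainders were smaller than against Cd3e, at -0.90 for Xcl1, -0.58 for Gzmm, -0.44 for Gzma and -0.40 for Nkg7.

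Of 21 further NK cell genes, 18 were above background on both arrays, and 13 of the 18 were lower on the RS array, with a median of -0.28. Past 2-fold were Klrb1a, an NK receptor of the NKR-P1 family, which read 70.4 and 21.8 (difference -1.59, spot error 0.25, and -0.54 with normexp), and Cd226, an activating receptor. The Cd226 value of -2.86 came from a probe with alternating A and G bases, and its other probes differed by -0.29 and -0.032. Klrb1c read 601 and 297 (-0.92), Cd7 982 and 498 (-0.88) and Fcgr3a, which encodes the Fc receptor CD16, 81.2 and 42.6 (-0.83). The other 5 of the 18 were higher, Cd244 by 0.49 (spot error 0.21), Sh2d1b by 0.46 (0.33), Klrc1 by 0.098 (0.38), Tyrobp by 0.030 (0.070) and Itgam by 0.021 (0.21). Klrd1 and Klrk1, the receptor chains CD94 and NKG2D, differed by -0.19 and -0.24, each with a spot error of 0.20. Without Cd226 the list summed to 82.7 (C) and 75.6 (RS), and with it to 116 and 80.2. Tyrobp, the brightest gene of the list at 7416 and 7074, weighs most in these sums. Ncr1 and, from the list, Klrb1, Klrg1 and S1pr5 were not marked above background on either array.

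Markers of erythrocytes and fat cells stood higher on the RS array. All 6 measured erythrocyte genes were higher by 2-fold or more (median 2.61), with Slc4a1 below background on both arrays, and their summed level was 54.1 (C) and 326 (RS). Of 6 fat cell genes, 5 were higher by 2-fold or more (median 2.18), with Plin1 and Pck1 below background, and the sum was 33.8 and 89.2. Of 6 measured neutrophil genes, 2 were higher by 2-fold or more (S100a8 and S100a9), and the median was 0.63. Ltf differed by -0.97, and Mpo and Elane were below background. The neutrophil list summed to 1.70 and 6.06. Macrophage genes had a median of -0.10 (sums 19.7 and 17.2) and mast cell genes of 0.10 (sums 6.91 and 7.32). The part of these tissues and cells in the lower values of the cytotoxic genes was not tested.

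Genes that build and release the granule were listed separately. Of 14 genes on the array, all above background, 0 passed 2-fold in either direction, 9 were lower, and the median was -0.11. Srgn, the proteoglycan core that holds granzymes, read 3106 and 3239 (difference 0.16, spot error 0.068), and Ctsc, the protease that activates granzymes, differed by 0.13. Unc13d and Rab27a, which dock and prime granules, differed by -0.11 each, and Stx11, a membrane fusion protein, by -0.31. The largest differences were those of Stxbp2, the partner of Stx11, at -0.66, and Slc29a3, a lysosomal nucleoside transporter, at -0.59. The probe of Stxbp2 holds alternating A and G bases. Serpinb9, the inhibitor that protects the killer cell from its own granzyme B, differed by -0.12.

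Among 13 transcription factors of cytotoxic lymphocytes, 1 was lower and 2 were higher by 2-fold or more, and the median was 0.0038. Eomes, which with Tbx21 directs the cytotoxic program, read 344 on the C array and 96.6 on the RS array, 3.32-fold lower, with a difference of -1.73 (spot error 0.21) and -1.29 with normexp. Its probe has no alternating run, and its longest stretch of A and G bases was 5. Tbx21, which encodes T-bet, read 7711 and 7221, a difference of 0.0038 (spot error 0.20). Bhlhe40, a factor of activated lymphocytes, read 59.3 and 137 (difference 1.31), and Nfil3, needed for NK cell development, 40.0 and 74.9 and was just past 2-fold. With normexp the differences of Bhlhe40 and Nfil3 were 0.81 and 0.50. Nfil3 also fell under 2-fold with some scalings and not with others. It was 0.98 with the 75th percentile over probes above background on both arrays and 0.905 without normalization. Prdm1, which encodes Blimp-1, differed by 0.72 and Runx3 by 0.40.

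Of 12 measured cytokines and receptors that sustain cytotoxic cells, 1 passed 2-fold. Il21, a cytokine of helper T cells, read 107 and 14.4 (difference -2.80, spot error 0.27, and -1.14 with normexp). Its probe has no alternating run but a stretch of 10 A and G bases. Il15, the survival factor of NK and memory CD8 T cells, read 93.8 and 46.9 (-0.90), while Il2rb, a chain of its receptor, differed by -0.17 and Il18 by 0.22. Il12a, Il12rb1 and Il18rap were not marked above background on either array.

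Downstream of the members, 11 of 12 receptors and signal partners were measured, and 0 passed 2-fold. The receptor chain Ifngr1 read 1885 and 2749 (0.64) and the kinase Jak2 differed by 0.54, whereas Ifngr2 (0.10) and Fas (-0.13) lay within their spot errors of 0.20 and 0.21. Of 16 measured targets of interferon gamma, 2 were higher and 1 was lower by 2-fold or more, with a median of 0.13. Socs1, the feedback inhibitor of this pathway, read 20.4 and 55.0 (1.53), and Ido1, which breaks down tryptophan, was at least 2.29-fold higher, being above background on the RS array only. With normexp these differences were 0.51 and 0.30. Gbp4, a guanylate-binding protein, differed by -1.93 on a probe with alternating A and G bases. The chemokines Cxcl9 and Cxcl10 differed by 0.51 and 0.62, Irf1 by 0.35, and Ciita, the master regulator of MHC class II, by -0.81.

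**Figure D3:**
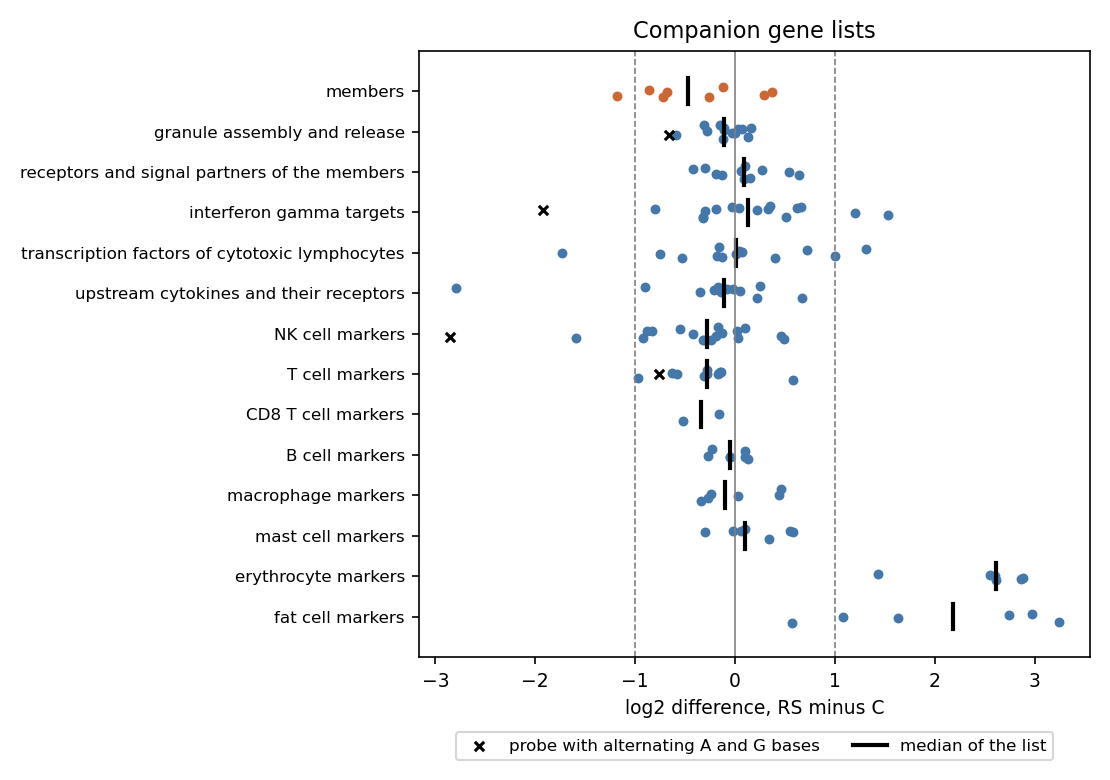
Log2 difference (RS minus C) of every measured gene in 14 lists, with the median of each list as a black bar, crosses for genes whose probe holds alternating A and G bases, and dashed lines at 2-fold. The members have a median of -0.47, next to -0.28 for the NK cell and T cell lists and 2.61 for the erythrocyte list.

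The promoters were read for a pattern that the rule had not used. RefSeq promoters of the GRCr8 assembly matched 9 of the 10 genes, and the 250 bases before the start of the gene were searched on both strands. The RUNX motif TGTGGTT was found in 4 of 9, those of Gzma, Gzmb, Gzmm and Xcl1, and in 4.59% of 33469 rat promoters. The motif lay 46 to 52 bases before the start in Gzma, 89 to 95 in Gzmm, 121 to 127 in Gzmb and 210 to 216 in Xcl1. The AP-1 motif TGACTCA was found in Gzmb only (4.05% of promoters) and the ETS motif ACCGGAAG in Gzmm only (2.02%). The T-box motif AGGTGTGA (0.959% of promoters), the CRE motif TGACGTCA (1.59%) and the palindromic glucocorticoid response element (0.012%) were found in 0 of 9. No shorter or other form of the T-box, RUNX, AP-1 or ETS motif was searched, so a promoter without a match can still hold such a form. Shorter elements were found in some: TGACGT, part of the CRE, in Gzmb and Prf1 (6.87% of promoters) and AGAACA, part of the glucocorticoid element, in Gzmk (17.5%). The string GGAAAAT, searched as an NFAT motif, was found in Gzma only (4.78%), and no shorter form of it was searched. The 4 promoters with the RUNX motif are printed 5′ to 3′ with the searched strings of the RUNX, AP-1 and ETS motifs in capitals. They lie at chr2:46485697-46485946 (Gzma), chr7:10667257-10667506 (Gzmm), chr15:34462470-34462719 (Gzmb) and chr13:79785441-79785690 (Xcl1), all on the reverse strand. None of the motifs overlaps another in these windows.
Gzma: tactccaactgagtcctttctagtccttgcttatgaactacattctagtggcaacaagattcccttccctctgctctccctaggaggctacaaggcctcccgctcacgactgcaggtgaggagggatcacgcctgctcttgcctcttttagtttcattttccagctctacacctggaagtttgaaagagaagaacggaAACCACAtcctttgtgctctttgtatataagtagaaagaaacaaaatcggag
Gzmm: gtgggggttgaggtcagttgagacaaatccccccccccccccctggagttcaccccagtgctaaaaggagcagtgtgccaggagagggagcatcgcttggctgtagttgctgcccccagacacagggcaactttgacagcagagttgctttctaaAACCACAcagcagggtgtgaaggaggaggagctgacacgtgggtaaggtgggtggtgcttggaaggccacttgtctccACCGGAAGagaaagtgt
Gzmb: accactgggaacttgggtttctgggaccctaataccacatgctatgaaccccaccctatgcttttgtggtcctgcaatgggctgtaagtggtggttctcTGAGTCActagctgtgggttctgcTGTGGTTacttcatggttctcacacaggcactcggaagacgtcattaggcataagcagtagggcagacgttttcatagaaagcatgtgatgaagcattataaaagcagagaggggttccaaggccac
Xcl1: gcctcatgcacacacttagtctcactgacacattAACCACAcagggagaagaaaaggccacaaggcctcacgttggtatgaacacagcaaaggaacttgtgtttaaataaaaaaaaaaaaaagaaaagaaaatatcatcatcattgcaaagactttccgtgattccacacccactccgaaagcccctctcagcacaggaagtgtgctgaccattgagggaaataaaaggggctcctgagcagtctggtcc
The genes that share the RUNX motif did not share a direction: 3 were lower on the RS array and Gzmb was not. Runx3 itself read 1121 and 1381. A match of letters is not a bound site.

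**Figure D4:**
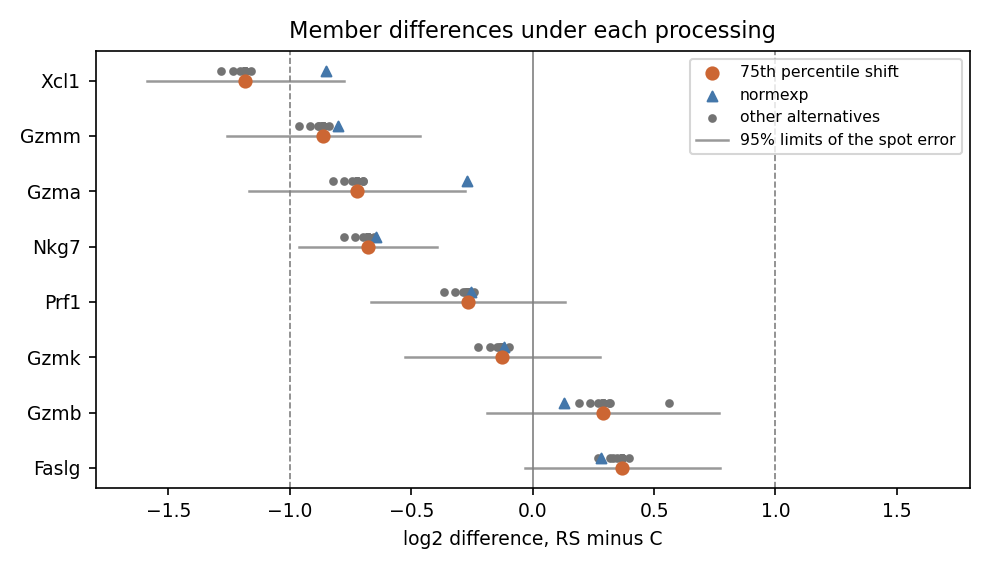
Log2 difference (RS minus C) of each measured member as reported (orange), with normexp (blue triangle) and with the other alternatives (gray), over limits of 1.96 spot errors (gray line); dashed lines mark 2-fold. Every point of Xcl1, Gzmm, Gzma, Nkg7, Prf1 and Gzmk lies below 0 and every point of Gzmb and Faslg above 0, and the difference of Xcl1 falls inside the 2-fold line with normexp.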

How the data were processed

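RNA of 1 C and 1 RS sample of cervical lymph nodes was analysed on Agilent SurePrint G3 Rat GE 8X60K arrays. The authors deposited spot intensity values extracted with Feature Extraction 11.5.1.1, background-subtracted within the array and not normalized between arrays, and a table of log2 values per probe. All values of that table lay within 0.1 of the levels computed here (100% of 45598 probes), so its scale is log2 intensity minus the 75th percentile; it served as an alternative.

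Of 58717 spots with probes other than controls, 489 on the C array and 660 on the RS array were outliers and were left out. Log2 values of repeated spots were averaged, and each array was then scaled by its 75th percentile, following the study's methods, with 2-fold as threshold. A probe was above background when more than 50% of its spots were marked so. A gene above background on 1 array only has a lower bound, taken against the higher of its own signal and the lowest signal above background on the dim array. Both arrays lay on 1 slide in 1 scan. No test was possible with 1 array per group.

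The members, the 19 companion lists, the rule for named genes (all members, other granzymes, list genes past 2-fold or else the gene with the largest difference, and reference genes of the main lymphocyte classes, among them Cd3e, Cd8a and Cd4) and 13 alternatives were chosen with earlier results of these data known. Erythrocyte, fat, neutrophil, immediate early and glucocorticoid genes are given by counts, and a few list genes were named for their role after their values were seen. A few named by the rule are left out here. Of the immediate early genes, 9 of 12 were higher by 2-fold or more (median 1.51), and of the glucocorticoid targets 6 of 8 (median 1.52). Of 5 CD4 T cell genes, 0 passed 2-fold (median 0.013). Another 4 alternatives were chosen after seeing the data. The steps were tested on simulated data. The software was limma 3.58.1 in R 4.3.3, and pandas 2.3.3, numpy 2.4.6 and matplotlib 3.10.9 in Python 3.11.15.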

Additional observations from a re-analysis of the deposited data

How the results depend on the processing

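No paired analysis was possible because C and RS have 1 array each. The directions of the 8 measured members held under each alternative that was run (scaling, background correction, deposited table, probe rule, spot filter, and filters on dim probes). With normexp, 0 members were lower by 2-fold or more and the median over members was -0.26. Normexp changes the background correction and adds an offset together, and the cause was not tested. With no filter on background, 2 members were lower by 2-fold or more, the second being Ifng, whose values lay under the background limit. At a 1.5-fold threshold, 4 were lower. Without Xcl1, the median over members was -0.27, a setting chosen after seeing the data, so the median of 8 genes rests on few values. The mean over probes gave 0.56 for Gzmb. Scaling alternatives moved the median over members between -0.57 and -0.45 and that of all screened genes between -0.084 and 0.041, by 0.1 or less. The number of all screened genes lower by 2-fold or more was 903, and it was 378 with normexp, 498 without alternating probes, 601 with genes above background on both arrays only and 2148 without a filter. In the lists, leaving out alternating probes changed Cd226 from -2.86 to -0.29. Dim probes limit Ifng, Ncr1 and Gzmb, and the number of arrays limits every difference.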

Other observations

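Relatives of the granzymes that are no members were looked up by name and description after the data had been seen. They came to 12 gene names and 15 probes, of which 4 genes were above background on 1 or both arrays. Gzmc, another protease of cytotoxic granules, read 30.3 on the C array and 29.8 on the RS array on its brightest probe, a difference of 0.074 with a spot error of 0.24, while its other probes were not well above background. The transcript ENSRNOT00000045209, described as granzyme B-like 3, read 4.25 and 13.2 and was at least 1.5-fold higher, with a spot error of 0.84 on the log2 scale. LOC103690372, described as granzyme B-like, read 15.2 and 8.16 and was at least 1.67-fold lower, with a spot error of 0.43. Another probe with that description, under a transcript name, read 2.19 and 2.20, both not well above background. LOC502003, described as similar to granzyme C, read 14.6 and 1.73 and was at least 1.61-fold lower, with a spot error of 1.5. Gzmf and Gzmn were not marked above background on either array.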
